A study of Mus musculus with 6 samples.

Results

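The tumour necrosis factor (TNF) ligand and receptor superfamilies were examined in the brains of LPS-treated mice and PBS-injected controls. A gene was taken as a member if its symbol in the array annotation begins with Tnfsf or Tnfrsf and a digit, or is Tnf, Lta, Ltb, Fas, Fasl, Ltbr, Cd40, Cd40lg, Cd27, Cd70 or Ngfr. Such genes were measured by the transcript cluster, the set of probes for a transcribed locus, that names the gene alone. This gave 40 members of 19938 genes named alone, comprising 15 ligands and 25 receptors, and each had a single cluster. A further cluster names Tnfsf12, Tnfsf13 and their fusion gene Tnfsfm13 together and is given separately. The LPS group was 3 male C57BL6 mice, 7 to 8 weeks old when purchased, that received 4 mg/kg LPS of Escherichia coli serotype 055:B5 by i.p. injection, and the PBS group was 3 male mice of the same strain and age that received PBS by the same route. Whole brain RNA was prepared 48 hours after injection and hybridized to Affymetrix Mouse Gene 1.0 ST arrays, 1 for each mouse. A whole brain holds neurons, glia, vessels and any blood cells that remain, and in such bulk RNA more cells of a type and more RNA per cell cannot be told apart.

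Members of the TNF superfamily are membrane-bound or shed ligands that act as trimers and cluster their receptors on the target cell. Receptors with a death domain, such as TNFR1, Fas and the TRAIL receptor DR5, recruit adaptors that can engage caspase-8, whereas receptors without one bind TRAF proteins and activate NF-kappa-B and MAP kinases. Decoy receptors bind ligand without passing on a signal. In the brain the family is known for the acute cytokine response of microglia, for signalling at the endothelium and for the shaping of axons and myelin through neural members such as p75, DR6 and TROY.

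Values are log2 signals after robust multichip average (RMA) normalization. Differences are LPS minus PBS on this scale with their standard error (SE), and a gene was called where the Benjamini-Hochberg adjusted p over all 35556 clusters was under 0.05 in limma, which pools the spread over clusters. With 3 mice per group, the smallest two-sided p of an exact permutation test is 0.1. On the first principal component LPS replicates 1 and 2 lay away from LPS replicate 3 and the PBS arrays. Their median signals were 7.09 and 7.11, against 6.96 in LPS replicate 3 and 6.95 to 6.98 in the PBS arrays. The difference between the means of LPS replicates 1 and 2 and LPS replicate 3 is therefore given beside several members. Olfactory and vomeronasal receptor genes, with little transcription expected in brain, had array medians of 5.67 to 5.81 after LPS and 5.70 to 5.77 after PBS. Probe sets differ in brightness, so differences were taken between mice only. Signals of different genes were set together as a rough guide to background, to order genes by PBS signal and in summed marker signals. A gene within or below this range cannot be told from background. The range is one of medians, so a signal above it is not by itself a sign of detection.

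RefSeq promoter windows (GRCm38.p6, 250 bases before to 50 bases after a gene start) were available for 31 of the 40 members, in 35 windows. The 4 windows printed are those of Tnfsf10, the member that passed the test, of Tnfrsf1b and Tnfrsf14, members with an unadjusted p under 0.05 whose window holds the interferon-stimulated response element letters GAAANNGAAA, and of Tnf, the founding ligand. Capitals mark matches, on either strand, to GAAANNGAAA or to the STAT-type letters TTCNNNGAA, and each sequence runs 5′ to 3′ on the strand of its gene.
Tnfsf10 (chr3:27316827-27317126, + strand): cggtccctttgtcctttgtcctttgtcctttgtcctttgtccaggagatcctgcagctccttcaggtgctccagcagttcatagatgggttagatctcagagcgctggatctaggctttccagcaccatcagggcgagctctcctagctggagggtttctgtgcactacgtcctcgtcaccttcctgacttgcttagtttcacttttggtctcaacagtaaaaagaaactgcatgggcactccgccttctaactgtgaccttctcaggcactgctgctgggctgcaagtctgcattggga
Tnfrsf1b (chr4:145246821-145247120, - strand): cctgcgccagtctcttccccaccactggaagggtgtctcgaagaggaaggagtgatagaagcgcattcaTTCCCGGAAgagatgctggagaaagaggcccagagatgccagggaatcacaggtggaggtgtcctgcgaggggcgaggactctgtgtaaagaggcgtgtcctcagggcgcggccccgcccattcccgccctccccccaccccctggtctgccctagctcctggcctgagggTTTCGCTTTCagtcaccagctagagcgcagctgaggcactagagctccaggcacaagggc
Tnfrsf14 (chr4:154928028-154928327, - strand): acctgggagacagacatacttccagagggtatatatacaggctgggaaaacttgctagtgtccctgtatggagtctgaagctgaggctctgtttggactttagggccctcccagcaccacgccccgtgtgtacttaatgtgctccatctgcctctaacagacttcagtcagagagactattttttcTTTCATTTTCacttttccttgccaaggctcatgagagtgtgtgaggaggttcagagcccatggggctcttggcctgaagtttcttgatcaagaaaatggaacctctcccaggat
Tnf (chr17:35201958-35202257, - strand): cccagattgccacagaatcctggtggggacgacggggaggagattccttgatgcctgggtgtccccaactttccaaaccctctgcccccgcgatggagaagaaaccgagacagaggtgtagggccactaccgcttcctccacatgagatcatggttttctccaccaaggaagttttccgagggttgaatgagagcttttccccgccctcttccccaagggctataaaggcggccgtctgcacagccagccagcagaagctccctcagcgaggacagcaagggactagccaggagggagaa
Tnfrsf1b held 1 match to each set of letters, Tnfrsf14 held 1 match to GAAANNGAAA, and the windows of Tnfsf10 and Tnf held neither. GAAANNGAAA occurred in 4 of the 35 member windows, those of Tnfrsf14, Tnfrsf17, Tnfrsf1b and Tnfsf13b, and in 3.44% of all 32851 windows of this length. TTCNNNGAA occurred in 9 member windows and in 8.3% of all windows. The loose kappa-B letters GGGNNNNNCC occurred in 50.8% of all windows and were not marked. Matches to different letters could overlap, and a match describes the sequence only.

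Of the 40 members, 1 was higher after LPS (2.5%) and none was lower, against 0.848% of all genes named alone that were higher and 0.0351% that were lower. Over all clusters, 0.652% were higher. The member that passed was Tnfsf10, which encodes the ligand TRAIL. At an unadjusted p under 0.05, 9 members were higher (22.5%) and none was lower, where 6.24% of genes named alone were higher and 7.24% were lower. These 9 were Tnfsf10 and the receptor genes Tnfrsf11a, Tnfrsf19, Tnfrsf1b, Tnfrsf22, Tnfrsf10b, Cd40, Tnfrsf14 and Tnfrsf23, and none of the receptors passed after adjustment (adjusted p from 0.137 to 0.315). All 3 LPS arrays lay above all 3 PBS arrays in 9 members, against 9.79% of genes named alone, and below them in no member, against 11.2%. The members apart in this way were Tnfsf10, Tnfrsf18 and each of those receptors except Tnfrsf23. The median difference was -0.01 over the ligands, 0.07 over the death domain receptors, 0.10 over the TRAF-binding receptors and 0.19 over the 4 decoy and mouse-specific receptors, beside -0.02 over all genes named alone.

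**Figure D1:**
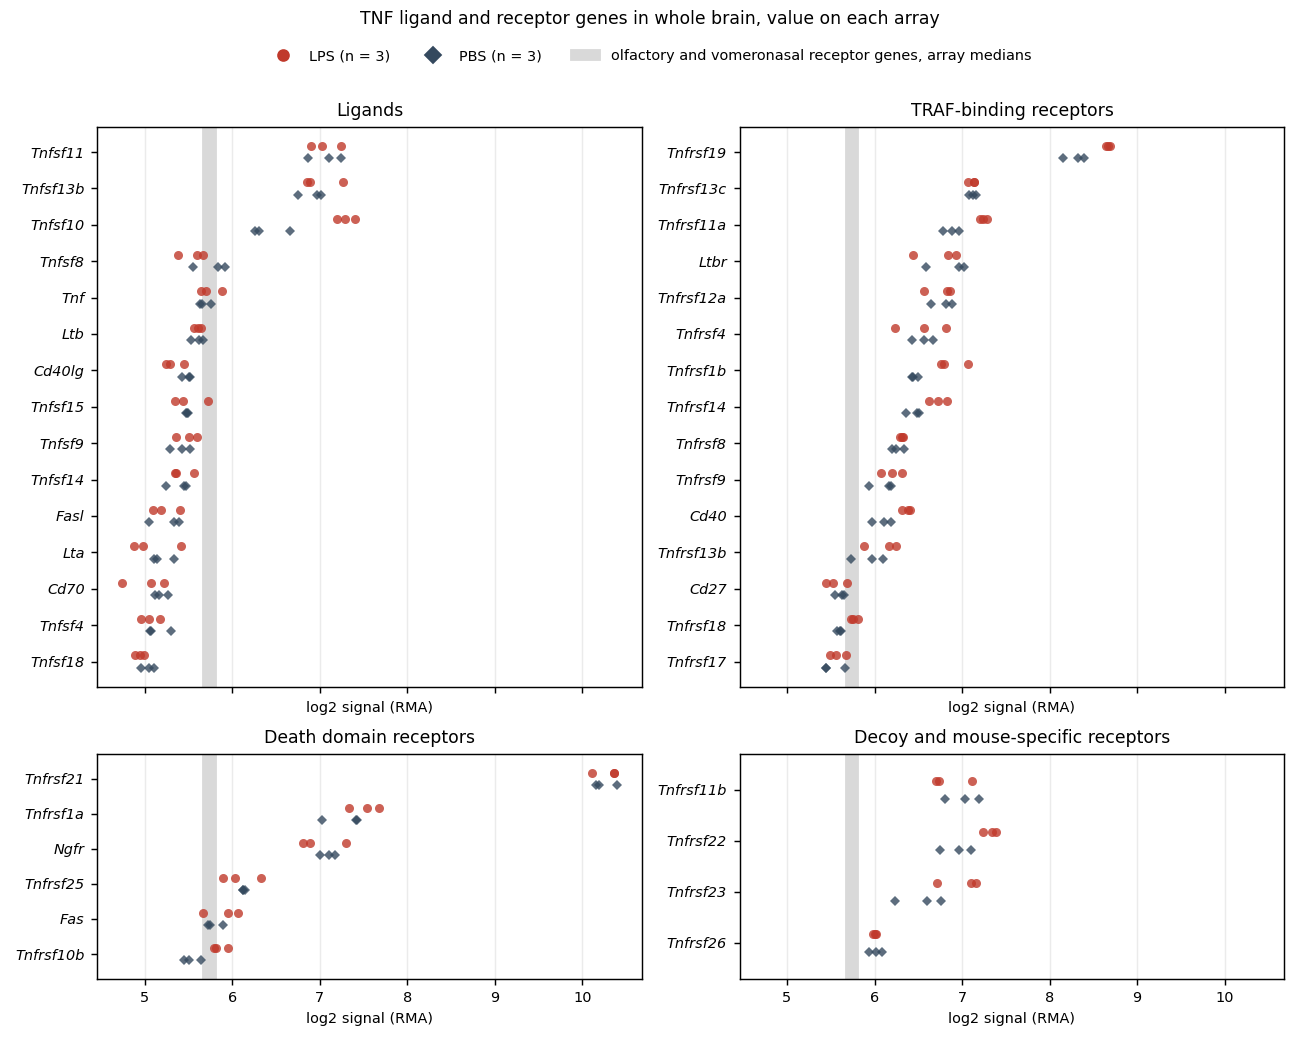
Each member's log2 signal (x axis) on the 3 LPS arrays (circles, upper of each pair) and the 3 PBS arrays (diamonds, lower), in 4 panels by role. The grey band spans the array medians of olfactory and vomeronasal receptor genes, 5.67 to 5.81, and genes are ordered by their PBS signal, which is not comparable between genes. Tnfsf10 has its groups farthest apart, and most ligands lie within or below the band.

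The ligand genes were mostly at background. The PBS mean of 17 of the 40 members was below 5.81, the highest of the 6 array medians given above. Among all 19938 genes named alone, 4182 were below this level. These 17 included 12 of the 15 ligands but 5 of the 25 receptors (Cd27, Fas, Tnfrsf10b, Tnfrsf17 and Tnfrsf18). For these genes a lack of difference is not informative. Tnfsf10, Tnfsf11 and Tnfsf13b were the ligands above this level.

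Tnfsf10 was the member with the largest difference. Its log2 signals were 7.20, 7.40 and 7.29 in LPS-treated mice, against 6.66, 6.31 and 6.26 in PBS-injected controls. The groups were separated by 0.54, which exceeded the range within either group (0.20 after LPS and 0.40 after PBS). Means were 7.30 ± 0.10 after LPS and 6.41 ± 0.22 after PBS (SD, n = 3 each), a difference of 0.89 (SE 0.13) or 1.85-fold, with a 95% interval of 1.50 to 2.28 (adjusted p = 0.0371 from limma). LPS replicates 1 and 2, which lay away from the rest on the first component, averaged 0.01 above LPS replicate 3 in this gene. The call was near the threshold. Under the 18 alternatives the difference was 0.78 to 1.01, with adjusted p values of 0.00554 to 0.23, and leaving out LPS replicate 1, LPS replicate 2, PBS replicate 2 or PBS replicate 3 ended the call (adjusted p = 0.121, 0.143, 0.194 and 0.163 from limma), as did quantile normalization, array median centring and the methods' t-test.

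**Figure D2:**
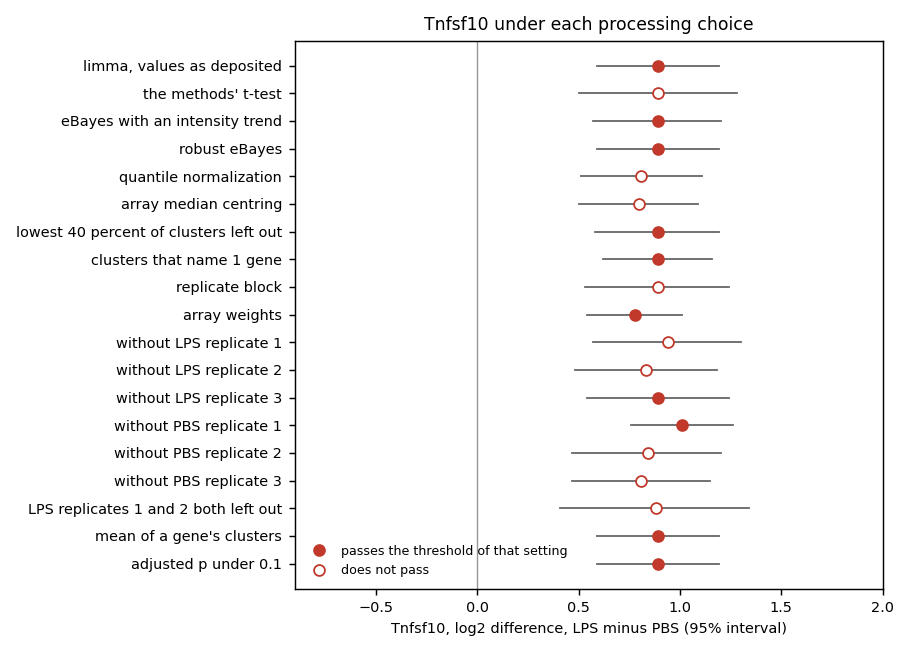
Difference of Tnfsf10 in log2 units, LPS minus PBS (x axis), with its 95% interval under each processing choice (rows). Filled circles passed the threshold of that setting, and the interval lay above 0 under every choice shown, while the adjusted p ranged from 0.00554 to 0.23.

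TRAIL binds a single death-inducing receptor in the mouse, DR5, encoded by Tnfrsf10b. Signals of Tnfrsf10b were 5.95, 5.79 and 5.81 after LPS, against 5.45, 5.64 and 5.50 after PBS. The groups did not overlap, but the PBS arrays were below the background range, and the difference of 0.32 (SE 0.09) did not pass (adjusted p = 0.216 from limma). The mouse also has decoy-type TRAIL receptors without a death domain, encoded by the adjacent genes Tnfrsf22 and Tnfrsf23. For Tnfrsf22, LPS signals of 7.34, 7.24 and 7.39 lay above PBS signals of 6.75, 7.10 and 6.96, a difference of 0.39 (SE 0.11, adjusted p = 0.216 from limma). Tnfrsf23 had 7.10, 7.16 and 6.71 in LPS-treated mice, against 6.60, 6.23 and 6.76 in PBS-injected controls. LPS replicate 3 fell among the PBS arrays in this gene, 0.42 below the mean of LPS replicates 1 and 2, and the difference of 0.46 (SE 0.17) did not pass (adjusted p = 0.315 from limma). These neighbours are close paralogs, so their probes may share signal. The next gene along, Tnfrsf26, a mouse receptor gene of the same locus, had a difference of -0.01 (SE 0.07, adjusted p = 0.966 from limma). Osteoprotegerin, the soluble receptor for TRAIL and RANKL encoded by Tnfrsf11b, had a mean of 6.85 ± 0.22 after LPS and 7.01 ± 0.20 after PBS (SD, n = 3 each), and did not pass (adjusted p = 0.649 from limma). LPS replicate 3 was 0.39 above the mean of LPS replicates 1 and 2 in this gene. Caspase-8 (Casp8), the initiator caspase that DR5 engages, rose to 8.61, 8.88 and 9.06 in LPS-treated mice, against 7.70, 7.58 and 7.53 in controls. Its difference of 1.24 (SE 0.13) was 2.37-fold (adjusted p = 0.00977 from limma).

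**Figure D3:**
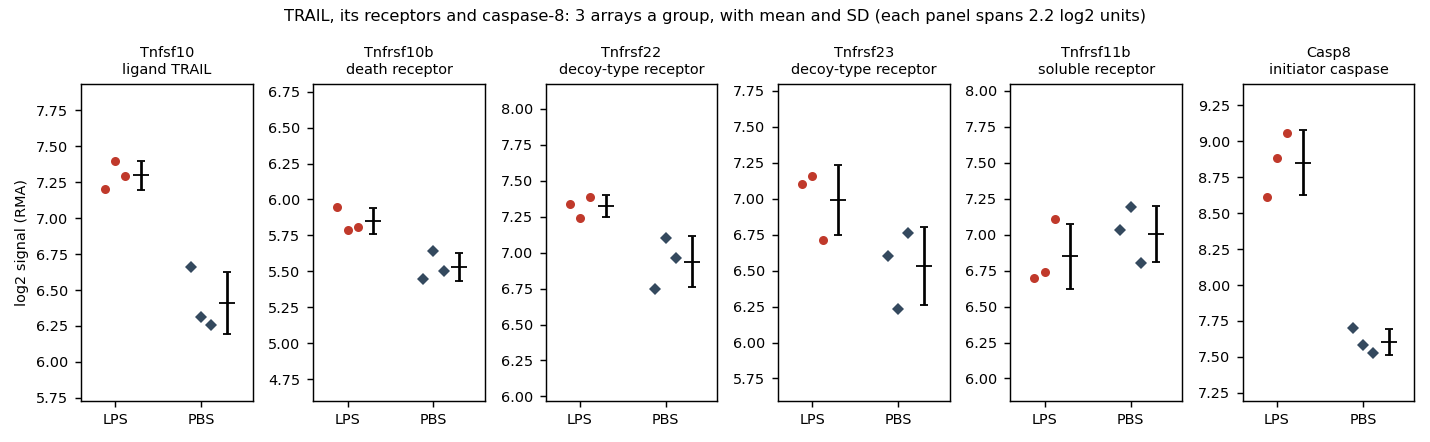
Log2 signal (y axis, 2.2 log2 units in each panel) of TRAIL, its receptors and caspase-8 on 3 LPS arrays (circles, left) and 3 PBS arrays (diamonds, right), with mean and SD. Tnfsf10 and Casp8 passed the test, Tnfrsf10b and Tnfrsf22 had groups that did not overlap without passing, and Tnfrsf23 and Tnfrsf11b overlapped.

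TNF and the lymphotoxins are neighbouring genes, with Tnf between Ltb and Lta. Tnf, the ligand most associated with the acute response to LPS, had signals of 5.88, 5.70 and 5.64 after LPS, against 5.63, 5.76 and 5.65 after PBS. The groups overlapped near the background range, and the difference was 0.06 (SE 0.09, 95% interval -0.16 to 0.27, adjusted p = 0.805 from limma). Lta and Ltb, which form the lymphotoxin trimers, had differences of -0.10 (SE 0.15) and 0.0011 (SE 0.07), also at background. In Lta, LPS replicates 1 and 2 averaged 0.31 above LPS replicate 3.

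The receptors for TNF had signals above the background range on every array. TNFR1, the death domain receptor encoded by Tnfrsf1a, had signals of 7.33, 7.54 and 7.67 after LPS, against 7.03, 7.42 and 7.41 after PBS. The lowest LPS array lay between the PBS arrays, and the difference of 0.22 (SE 0.14) did not pass (adjusted p = 0.5 from limma). TNFR2, encoded by Tnfrsf1b, binds TRAF proteins, responds best to membrane-bound TNF and is found on microglia and endothelium. Its signals were 6.76, 6.79 and 7.07 in LPS-treated mice, against 6.50, 6.43 and 6.44 in controls. The groups were apart by 0.26, wider than the PBS range of 0.07 but not the LPS range of 0.30, and LPS replicate 3 was the highest, 0.29 above the mean of LPS replicates 1 and 2. Here the difference was 0.42 (SE 0.10) or 1.34-fold and did not pass (unadjusted p = 0.00449, adjusted p = 0.171 from limma). Without LPS replicate 3 the difference was smaller, 0.32, and the unadjusted p was not lower (0.00489 from limma). The adjusted p there was 0.0476, in a fit that called 2640 clusters higher and 1152 lower, which eases the adjustment for every gene. The lymphotoxin-beta receptor (Ltbr) overlapped between groups, with a difference of -0.12 (SE 0.17, adjusted p = 0.773 from limma). Tnfrsf14, which encodes HVEM, a receptor for LIGHT and lymphotoxin-alpha, had signals of 6.72, 6.83 and 6.62 after LPS, against 6.49, 6.51 and 6.36 after PBS. Its groups were apart by 0.11, less than the range within either group, and the difference of 0.27 (SE 0.09) did not pass (adjusted p = 0.272 from limma). The gene for LIGHT, Tnfsf14, had a difference of 0.03 (SE 0.10) at background.

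RANK, encoded by Tnfrsf11a, is the TRAF-binding receptor for RANKL and is known for osteoclast formation and for fever. Tnfrsf11a ranked second among the members by p, with signals of 7.24, 7.28 and 7.20 after LPS, against 6.88, 6.96 and 6.78 after PBS. The groups were apart by 0.23, wider than the LPS range of 0.08 and the PBS range of 0.18. The difference of 0.37 (SE 0.08), or 1.29-fold, did not pass (unadjusted p = 0.00265, adjusted p = 0.137 from limma). Without LPS replicate 3 the difference was 0.39 and the unadjusted p was not lower (0.00378 from limma). The adjusted p there was 0.0416, again with many more clusters called. RANKL itself, encoded by Tnfsf11, had means of 7.06 ± 0.17 after LPS and 7.07 ± 0.19 after PBS (SD, n = 3 each), a difference of -0.01 (SE 0.13).

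Among the neural receptors, TROY, encoded by Tnfrsf19, is expressed in glia and neural progenitors and can replace p75 in the Nogo receptor complex. Its signals were 8.67, 8.69 and 8.65 in LPS-treated mice, against 8.33, 8.15 and 8.39 in controls. The LPS arrays lay within 0.04 of each other and 0.26 above the highest PBS array, and the difference of 0.38 (SE 0.09), or 1.30-fold, did not pass (adjusted p = 0.154 from limma). DR6, encoded by Tnfrsf21 and known from axon pruning and oligodendrocyte maturation, had means of 10.28 ± 0.14 after LPS and 10.25 ± 0.13 after PBS (SD, n = 3 each). The difference of DR6 was 0.03, with a 95% interval of -0.23 to 0.28. The low-affinity neurotrophin receptor p75 (Ngfr) had means of 7.00 ± 0.26 after LPS and 7.09 ± 0.09 after PBS (SD, n = 3 each), with an adjusted p of 0.799 from limma. Fn14, the TWEAK receptor encoded by Tnfrsf12a, had a difference of -0.04 (SE 0.11, adjusted p = 0.91 from limma). TWEAK (Tnfsf12) and APRIL (Tnfsf13) were measured only through the cluster they share with Tnfsfm13. That cluster had signals of 7.63, 7.60 and 7.40 after LPS, against 7.27, 7.19 and 7.23 after PBS. Its groups were apart by 0.13, and the difference of 0.31 (SE 0.09) did not pass (adjusted p = 0.224 from limma).

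**Figure D4:**
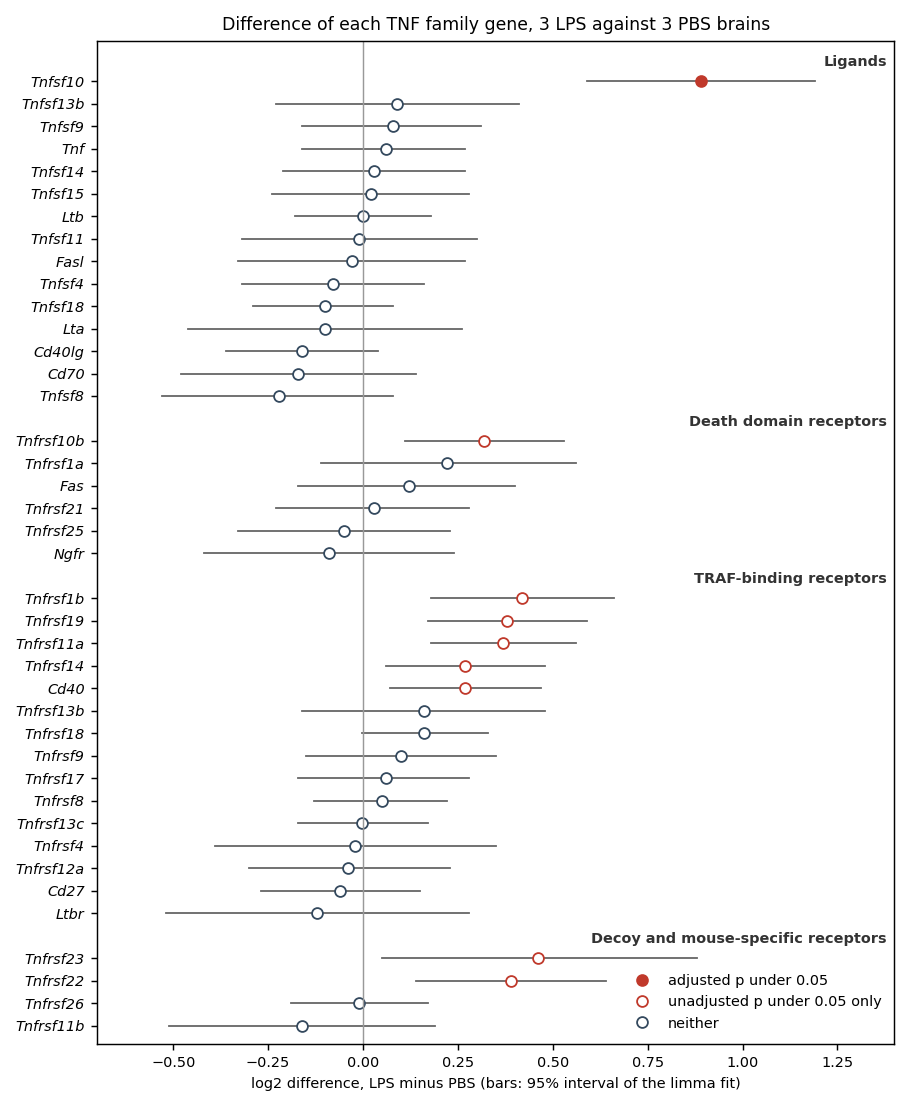
Log2 difference of each member, LPS minus PBS (x axis), with the 95% interval of the limma fit, ordered within 4 role groups. The filled point, Tnfsf10, passed the adjusted threshold, the 8 open red points are receptors with an unadjusted p under 0.05, and the other 31 members have intervals that include 0.

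CD40 and its relatives carry co-stimulatory signals between lymphocytes and antigen-presenting cells. Cd40 had signals of 6.40, 6.31 and 6.38 after LPS, against 5.97, 6.11 and 6.19 after PBS, so the groups were apart by 0.12. Its difference of 0.27 (SE 0.08) did not pass (adjusted p = 0.258 from limma). The gene for its ligand, Cd40lg, had a difference of -0.16 (SE 0.08, adjusted p = 0.419 from limma) at background. Tnfrsf18, the gene for the T cell receptor GITR, lay just outside an unadjusted p of 0.05 with 0.0522. It had 5.73, 5.81 and 5.75 after LPS, against 5.57, 5.62 and 5.60 after PBS, and these values are within or below the background range. Fas, the death receptor, had signals of 6.07, 5.95 and 5.67 after LPS, against 5.72, 5.89 and 5.75 after PBS. Its PBS mean of 5.78 was within the background range. The groups overlapped because LPS replicate 3 was the lowest of the 6 arrays, 0.34 below the mean of LPS replicates 1 and 2, and the difference was 0.12 (SE 0.12, adjusted p = 0.686 from limma). Fas ligand (Fasl), the product of cytotoxic lymphocytes, had a difference of -0.03 (SE 0.12) at background.

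BAFF, the B cell survival factor encoded by Tnfsf13b, had means of 7.00 ± 0.23 after LPS and 6.91 ± 0.14 after PBS (SD, n = 3 each), a difference of 0.09 (SE 0.14, adjusted p = 0.795 from limma). LPS replicate 3 was 0.40 above the mean of LPS replicates 1 and 2 in this gene. The BAFF receptor (Tnfrsf13c) had a difference of -0.0016 (SE 0.07), with 7.07 to 7.14 after LPS and 7.08 to 7.16 after PBS. The other receptors not yet given were Tnfrsf13b, Tnfrsf17, Cd27, Tnfrsf4, Tnfrsf8, Tnfrsf9 and Tnfrsf25, with differences of -0.06 to 0.16, and the other ligands were Tnfsf4, Tnfsf8, Tnfsf9, Tnfsf15, Tnfsf18 and Cd70, with differences of -0.22 to 0.08. None of these 13 had an unadjusted p under 0.05. Tnfrsf4, the gene for OX40, and Tnfsf15, the gene for TL1A, were among the members in which LPS replicates 1 and 2 were farthest from LPS replicate 3 (0.46 above and 0.33 below). Of 4 superfamily genes whose symbols fall outside the rule, Eda, Edar, Eda2r and Relt, none passed, and the smallest p was that of Relt (difference -0.28, SE 0.16, adjusted p = 0.456 from limma).

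Downstream of the receptors, 63 of 68 listed genes of TNF signalling were measured alone. LPS-treated mice had 4 of these higher (6.35%) and none lower, against 0.848% higher and 0.0351% lower among all genes named alone. The other 59 did not pass, and the median difference was 0.03. None of 19 adaptor, ubiquitin ligase and kinase genes passed. Traf5, a TRAF adaptor, had the smallest p, with a difference of 0.56 (SE 0.15, adjusted p = 0.196 from limma). Among 5 death effector genes, Casp8 was higher (20%, against 0.848% of genes named alone), as given above, and 4 did not pass. Within that group the median difference was 0.02. Mlkl had a difference of 0.61 (SE 0.12, adjusted p = 0.117 from limma), with all LPS arrays above all PBS arrays. Its means of 5.68 after LPS and 5.07 after PBS were within or below the background range. Cflar, Bid and Ripk3 overlapped, with differences of -0.02 to 0.02. None of 10 genes for NF-kappa-B kinases, subunits and inhibitors passed, with a median of 0.06, and Bcl3, a nuclear I-kappa-B protein, came nearest, with signals of 6.58 to 6.64 after LPS and 6.24 to 6.34 after PBS (difference 0.32, SE 0.07, adjusted p = 0.138 from limma). None of 8 deubiquitinases and other brakes passed, and Tnfaip3, which encodes the NF-kappa-B inhibitor A20, had a difference of 0.16 (SE 0.10, adjusted p = 0.499 from limma). None of 6 genes for sheddases and ligand processing passed. Adam17, which encodes the enzyme that releases soluble TNF, had a difference of 0.32 (SE 0.10, adjusted p = 0.268 from limma).

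Of 15 genes known to be induced by TNF, LPS-treated mice had 3 higher (20%, against 0.848% of genes named alone) and none lower. The other 12 did not pass, and the list median was 0.10. Whether TNF induced any of these genes here was not tested. Vcam1, the endothelial adhesion molecule for leukocytes that carry VLA integrins, had signals of 9.89, 10.03 and 9.90 in LPS-treated mice, against 8.61, 8.59 and 8.35 in controls. That difference of 1.42 (SE 0.10) was 2.68-fold (adjusted p = 0.00243 from limma). Icam1, the ligand of leukocyte beta-2 integrins, had 7.43, 7.34 and 7.37 after LPS, against 6.43, 6.58 and 6.60 after PBS, a difference of 0.84 (SE 0.08, adjusted p = 0.00809 from limma). Cxcl10, the chemokine IP-10, which interferons also induce, had 8.00, 7.51 and 8.43 after LPS, against 5.95, 6.00 and 5.79 after PBS. The Cxcl10 difference of 2.07 (SE 0.22) was 4.19-fold (adjusted p = 0.012 from limma), and the groups of these 3 genes did not overlap. The call of Vcam1 held when any 1 array was left out (adjusted p up to 0.0219 from limma). Those of Casp8 and Cxcl10 ended when any 1 PBS array was left out, that of Casp8 also without LPS replicate 2 and that of Cxcl10 also without LPS replicate 1 (adjusted p up to 0.0793 and 0.0832), and that of Icam1 ended without LPS replicate 1, PBS replicate 1 or PBS replicate 2 (adjusted p up to 0.0571). In the same list Sod2 had a difference of 0.01 (SE 0.07), while Il6 (-0.11), Cxcl1 (0.00056) and Cxcl2 (-0.13) were at background. Ccl2 (0.46, SE 0.15, adjusted p = 0.266 from limma) and Ptgs2 (0.35, SE 0.12, adjusted p = 0.294) did not pass. Their LPS arrays nevertheless lay above all PBS arrays, with the PBS mean of Ccl2 below the background level. Tnfaip6 had a difference of -0.30 (SE 0.15, adjusted p = 0.417 from limma), with groups that overlapped.

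**Figure D5:**
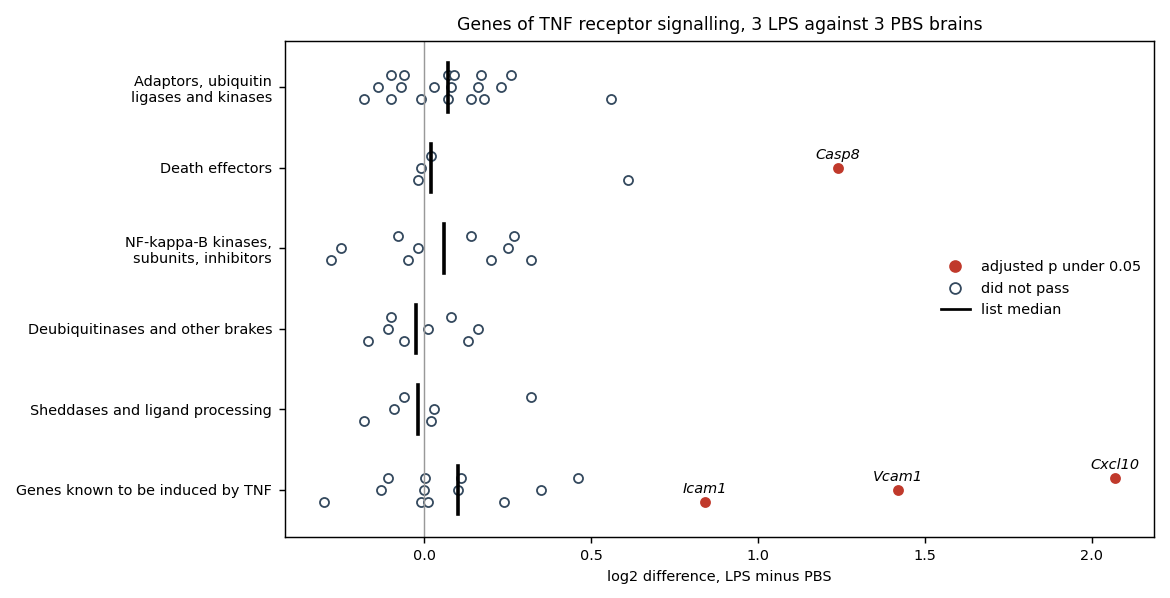
Log2 difference, LPS minus PBS (x axis), of each measured gene in 6 lists of TNF receptor signalling (rows; points are staggered for legibility, and black lines are list medians of -0.02 to 0.10). Casp8, Icam1, Vcam1 and Cxcl10 passed the test (filled), and the other 59 genes did not.

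Markers of vessels moved with the same groups. Of 6 endothelial markers, 5 were higher after LPS (Pecam1, Cdh5, Cldn5, Tek and Emcn), against 0.848% of genes named alone. None of the 6 was lower, and Flt1 did not pass (adjusted p = 0.129 from limma). Their median difference was 1.01, and the log2 of their summed signal was 11.46 to 11.60 on the LPS arrays and 10.52 to 10.68 on the PBS arrays, with none of the 6 at background. The part of this in the differences of Tnfsf10, Tnfrsf1b, Vcam1 and Icam1 was not tested. None of 5 pericyte and smooth muscle markers passed (median 0.35, log2 summed signal 11.45 to 11.71 after LPS and 10.96 to 11.28 after PBS), and none of 5 microglial markers passed (median 0.11, 10.96 to 11.25 after LPS and 10.74 to 10.92 after PBS). All 5 of the former had LPS arrays above all PBS arrays (100%, against 9.79% of genes named alone), as had 2 of the latter (40%). An unadjusted p under 0.05 from limma was reached by 4 of the former (80%, against 6.24%) and 2 of the latter (40%). Of the blood cell lists, 1 of 6 neutrophil genes (Csf3r) and 1 of 4 monocyte genes (Fn1) were higher, while 4 of the neutrophil genes, among them S100a8, Ly6g and Mpo, and 2 of the monocyte genes were at background after PBS. Neither the 8 genes of T and NK cells nor the 5 of B cells held one that passed, and 5 and 3 of these were at background after PBS. LPS arrays lay above all PBS arrays in 2 T and NK genes (25%) and 1 B cell gene (20%), against 9.79% of genes named alone. These were Gzma (0.57, SE 0.10, adjusted p = 0.0768 from limma), Cd3e (0.26, SE 0.09) and Cd79b (0.21, SE 0.08). Gzma had 6.19 to 6.44 after LPS and 5.65 to 5.86 after PBS. The other genes of both lists overlapped. Of 5 meningeal fibroblast markers, Dcn was higher, with a difference of 0.64 (SE 0.10, adjusted p = 0.0466 from limma), and 4 did not pass (median 0.06, log2 summed signal 11.38 to 11.62 after LPS and 10.93 to 11.02 after PBS). A summed signal is led by the brightest gene, which was Dcn here and Ttr in the choroid plexus list below. The 4 meningeal genes that did not pass had differences of -0.02 to 0.10. None of 5 astrocyte markers passed (median 0.04, 13.46 to 13.62 after LPS and 13.40 to 13.46 after PBS). Among them Gfap, an intermediate filament of reactive astrocytes, had groups that did not overlap and a difference of 0.56 (SE 0.12, adjusted p = 0.13 from limma). The LPS arrays of Aqp4 (0.19, SE 0.11) also lay above all PBS arrays, by 0.01, which made 2 of the 5 astrocyte markers (40%, against 9.79% of genes named alone). Aldh1l1, Slc1a3 and Slc1a2 overlapped, with differences of -0.18 to 0.04. None of 5 choroid plexus markers passed (median -0.11, 13.05 to 13.40 after LPS and 13.20 to 13.32 after PBS). Neuronal and oligodendrocyte markers, the defining genes of the labelled tissue, were above the background range on all arrays, and none passed. Medians were 0.05 over 5 neuronal and -0.12 over 4 oligodendrocyte genes, and all 4 of the latter had negative differences. In 2 of them (50%, against 11.2% of genes named alone), Mog (-0.25, SE 0.09) and Cnp (-0.14, SE 0.08), the LPS arrays lay below all PBS arrays. In 1 neuronal gene, Snap25 (0.14, SE 0.07), they lay above. The part of any of these lists in the members' differences was not tested.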

How the data were processed

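Whole brain RNA of 3 LPS-treated and 3 PBS-injected mice was measured on Affymetrix Mouse Gene 1.0 ST arrays. The log2 values used are those deposited by the authors after RMA. This method subtracts background, normalizes probe values between arrays and combines the probes of each cluster into a single value. The array medians of the deposited values still ran from 6.95 to 7.11 and were highest in LPS replicates 1 and 2. These offsets remain in the main fit. The methods describe more than one RMA version and which of them gave these values is not stated, and neither the annotation release nor a genome build is given in the sources used here. No further normalization or filter was applied. Gene names came from the platform annotation, brought up to date by gene identifier, and the brightest cluster that names a gene alone stood for it.

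LPS was compared with PBS with two-sided tests from lmFit and eBayes (limma 3.58.1, R 4.3.3). P-values were adjusted over all 35556 clusters by Benjamini-Hochberg, and 0.05 was the threshold. Intervals are 95% confidence intervals of that fit. The methods' t-test, an unpaired t test, was run on the same values as an alternative. Other alternatives were eBayes with an intensity trend or robust, array weights, quantile normalization, array median centring, a fit without the dimmest 40% of clusters, a fit to clusters with 1 gene name, a block for the replicate number, a threshold of 0.1, each array left out, LPS replicates 1 and 2 both left out, and the mean of a gene's clusters. The fit was tested on simulated data.

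The members, the lists of signalling genes and the markers were chosen with earlier results of these data known, so their counts are descriptions. Named members are those with an adjusted or unadjusted p under 0.05, the 5 with the highest PBS mean, and Tnf, Lta, Ltb, Tnfsf10, Tnfsf13b, Fas, Fasl, Cd40, Cd40lg, Ltbr, Ngfr, Tnfrsf1a, Tnfrsf1b, Tnfrsf12a, Tnfrsf19 and Tnfrsf21, with all others by range. In each signalling list the genes that passed are named, or the gene with the smallest p. Tnfrsf18, Tnfrsf26, Tnfrsf11b, Tnfsf11, Tnfsf14, Tnfrsf4, Tnfsf15, Sod2, Il6, Cxcl1, Cxcl2, Ccl2, Ptgs2, Tnfaip6, Mog, Cnp and Snap25 were given values after these were seen. The same holds for Mlkl, Cflar, Bid, Ripk3, Gfap, Aqp4, Aldh1l1, Slc1a3, Slc1a2, Gzma, Cd3e and Cd79b. Matches in promoters were found by exact search. No detection call per probe was used, and precision is limited by there being 6 arrays.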

Additional observations from a re-analysis of the deposited data

How the results depend on the processing

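Tnfsf10 was higher under all 18 alternatives and passed with eBayes with a trend or robust, without the dimmest clusters, with clusters that name 1 gene, with array weights, with the mean of a gene's clusters and at an adjusted p under 0.1. Its difference was 0.89 with the methods' t-test (adjusted p = 0.208), 0.81 with quantile normalization (0.0598), 0.80 with array median centring (0.06) and 0.88 with LPS replicates 1 and 2 both left out (0.23), and none of these passed, so that 0 members were higher there. Without 1 array at a time it was 0.81 to 1.01, with 0 to 3 members higher and 1 to 8 signalling genes passing. The count of 3, with Tnfrsf11a and Tnfrsf1b, and the count of 8 came without LPS replicate 3, where 2640 clusters were higher and 1152 lower. Signalling genes passing numbered 0 with the methods' t-test and 2 with LPS replicates 1 and 2 both left out. Same-numbered mice did not deviate together (correlations of 0.0867, -0.0538 and 0.0997), and with the replicate block the difference of Tnfsf10 was 0.89 (adjusted p = 0.134), 0 members were higher and 1 signalling gene passed. With array weights, 10 members were higher and 1, Cd40lg, was lower, 19 signalling genes passed and 4751 clusters were higher and 3572 lower. There LPS replicate 1 had a weight of 8.69, against 0.49 and 0.25 in the other LPS arrays and 0.86 to 1.20 in the PBS arrays, so that these calls rest on 1 LPS mouse.

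Signs turned only in members that had not passed. Array median centring moved the median of all clusters by -0.09, and there Ltb was -0.09, Tnf -0.03, Tnfrsf21 -0.06 and Tnfsf13b -0.0019. With quantile normalization Ltb was -0.01 and Tnfsf13b -0.0029, and with array weights Ltb was -0.04, Ngfr 0.17 and Tnfsf13b -0.02. With LPS replicates 1 and 2 both left out Fas was -0.11, Ltbr 0.07, Tnf -0.04, Tnfrsf12a 0.07 and Tnfrsf13c 0.02. Across single arrays left out, the differences ran from -0.13 to 0.04 in Fasl, -0.26 to 0.0011 in Lta, -0.04 to 0.03 in Ltb, -0.25 to 0.03 in Ltbr, -0.24 to 0.01 in Ngfr, -0.01 to 0.11 in Tnf, -0.10 to 0.06 in Tnfrsf12a, -0.02 to 0.02 in Tnfrsf13c, -0.02 to 0.11 in Tnfrsf21 and -0.04 to 0.17 in Tnfsf13b. Causes were not tested. The 9 members with an unadjusted p under 0.05 stayed positive under every alternative that tested them. They were picked on these same arrays, so this adds no separate support. All 9 kept an unadjusted p under 0.05 (limma) with eBayes with a trend or robust. With quantile normalization 7 did so, without LPS replicate 1 6, and with array median centring 5. Without the dimmest clusters 17 members were tested.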
